A study of Mus musculus with 8 samples.

Results

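The genes described here are 40 mouse genes known to be switched on by type I interferon, chosen by name. Each was followed through every array probe whose RefSeq accession belongs to it. A named probe existed for 36 of the 40 genes (55 probes), and 35 were bright enough to be tested among 29362 features. The other 5 are Oas3, whose probe was well above background in 0 of 16 animals, and Oas1b, Mx1, Mx2 and Ifitm2, which have no named probe here. Total RNA came from the cortex of 16 mice (right fronto-parietal part, on the injured side) and was hybridised to 8 Agilent arrays in 2 colours, 2 mice to an array. The 4 groups, with 4 biological replicates each, were cryolesioned mice deficient in microglia-derived Il6, control mice with that deficiency, cryolesioned floxed mice and control floxed mice. In a cryolesion a cold probe kills a small patch of brain tissue. The reference genotype is labelled only as floxed, and the Cre driver, the strain, age and sex of the mice and the time after injury are not given in the sources used here.

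Interferons alpha and beta bind a shared receptor, IFNAR, whose kinases Jak1 and Tyk2 signal to the complex ISGF3, which contains Stat2 and Irf9. ISGF3 binds the interferon-stimulated response element in the promoters of its targets. The targets include sensors of foreign RNA and DNA, enzymes that stop translation or degrade RNA, membrane proteins that block virus entry or release, and regulators that amplify or end the response. In brain, microglia, astrocytes, endothelial cells and incoming leukocytes can all express them, and several also respond to interferon gamma.

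The core of the response element, GAAA followed by any 2 bases and a second GAAA, was searched on both strands from 250 bases before to 50 bases after each gene's start in RefSeq (build GRCm38.p6). Of the 40 members, 28 had an entry, and 12 of these 28 held the core (42.9%), against 1079 of 27025 genes in all (3.99%). The gamma-activated sequence (TTC, any 3 bases, GAA), an element of the interferon gamma response, stood in 10 of the 28 members (35.7%), against 2582 of 27025 genes (9.55%). The lines below give 100 bases from before the start, on the gene's own strand, for the 6 members with an entry that had the lowest p for the cryolesion change. Isg15 and Ifit3 were added after the search because they hold several copies. Capitals mark the core or its reverse complement, overlapping copies included. The stretches end at the base before the start, except those of Bst2 and Ifit3, which end 95 and 93 bases before it.
Oas1a (chr5:120907526-120907625, minus strand): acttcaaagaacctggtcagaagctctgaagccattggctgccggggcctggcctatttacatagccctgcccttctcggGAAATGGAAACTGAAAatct
Ifi35 (chr11:101448312-101448411, plus strand): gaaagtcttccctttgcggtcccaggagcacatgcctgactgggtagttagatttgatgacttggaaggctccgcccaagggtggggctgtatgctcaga
Ifitm3 (chr7:141010745-141010844, minus strand): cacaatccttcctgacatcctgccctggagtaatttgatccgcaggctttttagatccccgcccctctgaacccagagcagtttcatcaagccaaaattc
Irf9 (chr14:55603885-55603984, plus strand): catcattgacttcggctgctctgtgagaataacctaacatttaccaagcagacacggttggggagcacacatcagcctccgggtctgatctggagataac
Bst2 (chr8:71537567-71537666, minus strand): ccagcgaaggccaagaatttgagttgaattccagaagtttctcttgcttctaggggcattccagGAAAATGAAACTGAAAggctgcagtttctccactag
Eif2ak2 (chr17:78882573-78882672, minus strand): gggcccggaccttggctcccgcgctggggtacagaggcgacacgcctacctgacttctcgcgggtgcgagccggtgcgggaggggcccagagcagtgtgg
Isg15 (chr4:156200819-156200918, minus strand): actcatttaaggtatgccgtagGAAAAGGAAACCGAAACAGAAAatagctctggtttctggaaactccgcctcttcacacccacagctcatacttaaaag
Ifit3 (chr19:34583337-34583436, plus strand): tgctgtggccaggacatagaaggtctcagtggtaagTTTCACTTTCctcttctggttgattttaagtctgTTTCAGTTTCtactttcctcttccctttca
Oas1a held 2 overlapping copies that begin 20 and 14 bases before its start, Bst2 2 copies from 130 and 124 bases before, and Isg15 3 copies from 78, 72 and 66 bases before. In Ifit3 the copies lay on the opposite strand, 156 and 122 bases before the start. Ifitm3 and Eif2ak2 had their copies after the start, outside the stretch shown, and the windows of Ifi35 and Irf9 had no copy of the core. Upstream copies were also found in Rsad2 and Ifit1. A match is a description of these letters and not a mapped binding site.

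Cryolesion was accompanied by higher levels of most of these genes. Averaged over both genotypes, 27 of the 35 tested members rose and 0 fell, at a Benjamini-Hochberg adjusted p under 0.05 over all features in a limma fit. Of all features tested, 6.02% rose by the same rule. The median log2 change of the 35 members was 0.93, and that of all features was -0.01. The largest changes were those of Ifi204 (2.09 ± 0.15, log2 change ± SE) and Isg15 (1.82 ± 0.21), and 14 of the 27 had a log2 change of 1 or more on average. In Il6-deficient mice alone 18 members rose and 0 fell, with a background of 1.67% of features. In floxed mice alone 15 rose and 0 fell, with a background of 1.86%. The 18 of Il6-deficient mice held all 15 of floxed mice; the other 3 were Irf7, Rsad2 and Ifit3. No member passed the test for a different response to cryolesion between genotypes (0 of 35 and 0% of all features at an adjusted p under 0.05). At an unadjusted p under 0.05 there was 1 member, against 972 of 29362 features. In whole cortex, more cells of a type and more RNA per cell cannot be told apart.

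**Figure D1:**
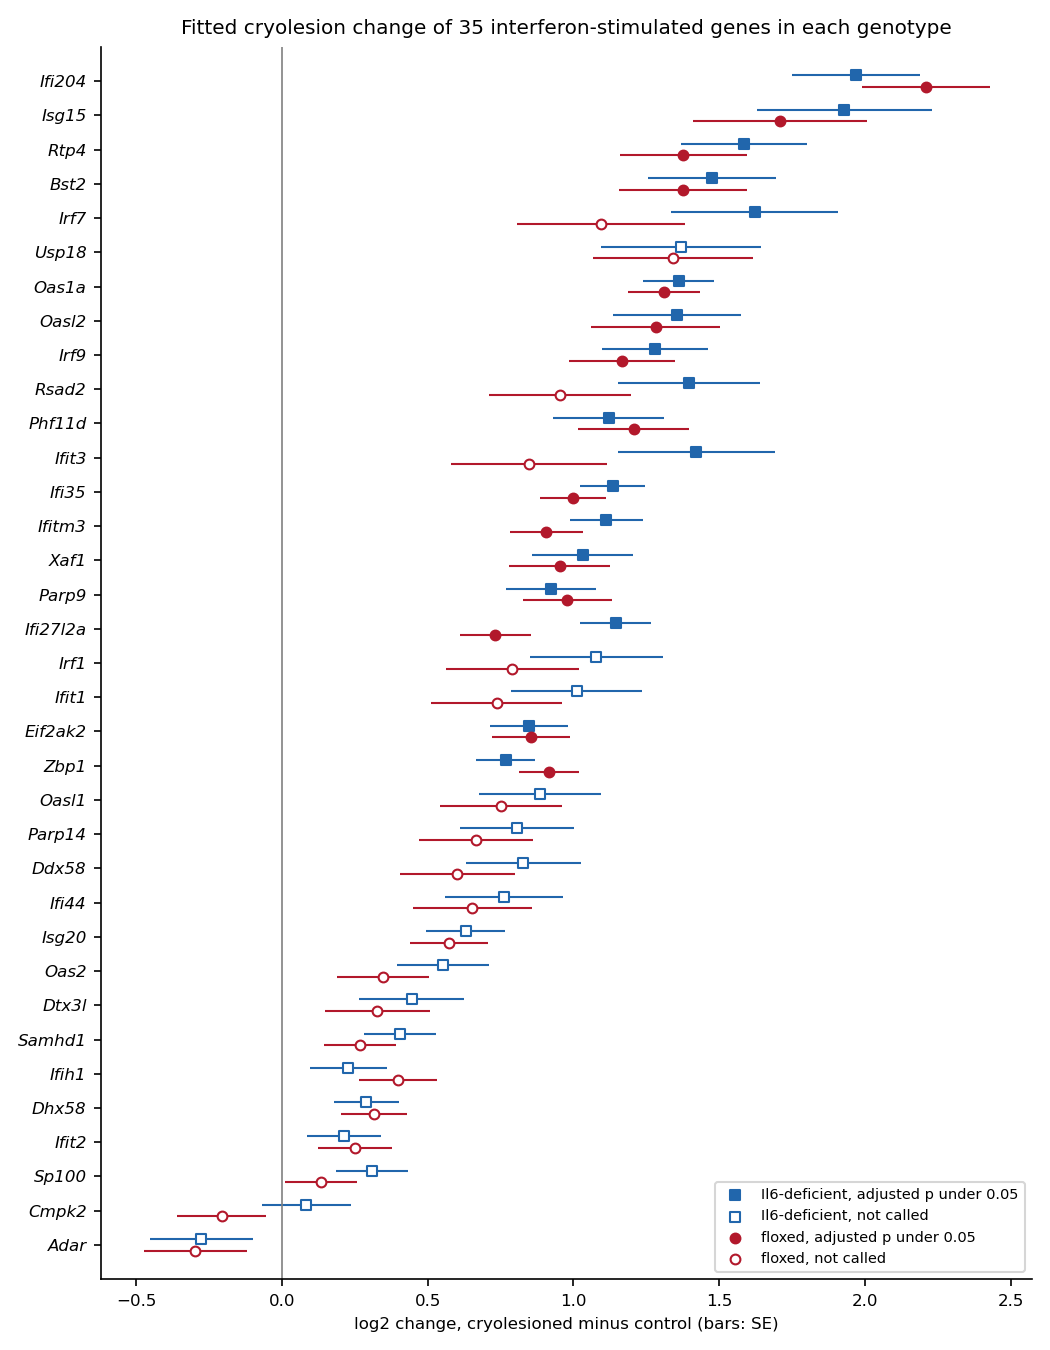
Fitted log2 change (x axis; bars, SE) of each of the 35 tested interferon-stimulated genes (y axis) after cryolesion, for Il6-deficient mice (blue squares) and floxed mice (red circles); filled symbols have an adjusted p under 0.05. Nearly all genes lie right of 0, from Ifi204 near 2 at the top to Cmpk2 and Adar at the bottom, and the SE bars of the genotypes overlap for most genes.

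No array held a cryolesioned and a control mouse of the same genotype. The average over genotypes is therefore the firmest estimate, because 4 arrays carry a cryolesioned and a control mouse side by side. The estimate within a genotype also needs the arrays that compare the genotypes. There are 2 arrays of each kind: deficient lesion (cryolesioned Il6-deficient beside control floxed), floxed lesion (cryolesioned floxed beside control Il6-deficient), genotype lesion (both genotypes after cryolesion) and genotype control (both genotypes without it). With any 1 array left out, the average called between 15 and 29 members, while calls in either direction covered 3.16% to 17.6% of all features. Without floxed lesion array 1 or 2 it called 16 each, and without deficient lesion array 2 it called 15. Within a genotype such fits called 0 to 26 members in Il6-deficient mice (0.126% to 4.04% of all features) and 0 to 20 in floxed mice (0.194% to 7.29% of all features). Without genotype lesion array 2, 0 members and 37 features in all were called in Il6-deficient mice. In Il6-deficient mice the count was 5 or lower without any 1 of 6 arrays, all but genotype control array 2 and deficient lesion array 1. In floxed mice it was 5 or lower without genotype control array 1, either floxed lesion array, genotype lesion array 2 or deficient lesion array 2. The 15 members called in both genotypes were also called for the average whichever array was left out. They are Bst2, Eif2ak2, Ifi204, Ifi27l2a, Ifi35, Ifitm3, Irf9, Isg15, Oas1a, Oasl2, Parp9, Phf11d, Rtp4, Xaf1 and Zbp1.

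Values of single mice are log2 intensities of their channel, given for replicates 1 to 4. The fit uses ratios within arrays, so its changes need not equal the differences of these means. Among the transcription factors, Irf9, the DNA-binding subunit of ISGF3, stood at 10.03, 10.63, 10.13 and 10.44 in cryolesioned Il6-deficient mice, against 8.84, 9.18, 9.27 and 9.41 in control Il6-deficient mice. It stood at 10.86, 10.78, 9.98 and 10.43 in cryolesioned floxed mice, against 8.76, 9.23, 9.50 and 9.14 in control floxed mice. Every cryolesioned mouse was above every control mouse, and the change averaged 1.22 ± 0.13 (adjusted p = 0.00323).
Irf7, which drives a second wave of interferon production, stood at 9.61, 11.20, 10.03 and 10.48 in cryolesioned Il6-deficient mice, against 8.72, 8.72, 9.65 and 9.29 in control Il6-deficient mice. Its levels were 11.28, 11.40, 9.39 and 10.75 in cryolesioned floxed mice, against 8.999, 8.83, 9.52 and 9.28 in control floxed mice. The groups overlapped in both genotypes, through cryolesioned floxed mouse 3 and cryolesioned Il6-deficient mouse 1. Irf7 rose by 1.36 ± 0.20 on average (adjusted p = 0.00981); it rose in Il6-deficient mice (1.62 ± 0.29, adjusted p = 0.0405) and had 1.10 ± 0.29 in floxed mice (adjusted p = 0.0986). The difference between these 2 responses was 0.53 ± 0.41 (adjusted p = 1).
Irf1, a factor induced by interferons and by other cytokines, stood at 10.03, 9.81, 9.57 and 10.06 in cryolesioned Il6-deficient mice, against 9.11, 9.05, 9.10 and 9.09 in control Il6-deficient mice. It was at 10.38, 10.36, 9.36 and 10.14 in cryolesioned floxed mice, against 9.15, 9.25, 9.40 and 9.03 in control floxed mice. Cryolesioned floxed mouse 3 lay within the range of its controls, while the Il6-deficient groups did not overlap. Irf1 rose by 0.93 ± 0.16 on average (adjusted p = 0.0151). A second, dimmer Irf1 probe, above background in 11 of 16 animals, had a log2 change of 0.06 ± 0.07.

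Of the 5 sensors of RNA and DNA, 3 rose and 2 did not pass the test. Ifi204, a DNA sensor of the HIN-200 family, had the largest rise of all members. It stood at 7.71, 9.15, 8.01 and 8.73 in cryolesioned Il6-deficient mice, against 6.41, 6.23, 6.98 and 6.70 in control Il6-deficient mice. In floxed mice it was at 9.58, 9.53, 8.12 and 9.42 after cryolesion, against 6.40, 6.45, 6.88 and 6.93 in controls. All cryolesioned mice were above all controls, with floxed mouse 3 well below the other cryolesioned floxed mice. The change was 1.97 ± 0.22 in Il6-deficient mice (adjusted p = 0.0112) and 2.21 ± 0.22 in floxed mice (adjusted p = 0.00731).
Zbp1, which senses Z-form nucleic acid and can trigger necroptosis, stood at 6.62, 7.37, 7.12 and 7.13 in cryolesioned Il6-deficient mice, against 6.25, 6.29, 6.69 and 6.45 in control Il6-deficient mice. Its levels were 7.61, 7.63, 6.86 and 7.51 in cryolesioned floxed mice, against 6.38, 6.24, 6.55 and 6.43 in control floxed mice. Only the floxed groups were apart, since cryolesioned Il6-deficient mouse 1 lay below control Il6-deficient mouse 3. Zbp1 rose by 0.84 ± 0.07 on average (adjusted p = 0.00156).
Ddx58, which encodes the RNA sensor RIG-I, rose by 0.71 ± 0.14 (adjusted p = 0.0222). Ifih1, which encodes MDA5, and Dhx58, which encodes LGP2, had changes of 0.31 ± 0.09 and 0.30 ± 0.08 that missed the threshold (adjusted p = 0.0786 and 0.0535). In cryolesioned Il6-deficient mice Ddx58 averaged 8.41 ± 0.32 (SD, n = 4), against 7.81 ± 0.29 in control Il6-deficient mice; the floxed groups averaged 8.63 ± 0.55 after cryolesion, against 7.75 ± 0.26 in controls.

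All 4 tested members of the 2-5A synthetase family were called higher, Oas2 only narrowly. Oas1a, which makes the oligoadenylates that activate RNase L, had the lowest p of all members. It stood at 8.31, 9.61, 8.82 and 9.09 in cryolesioned Il6-deficient mice, against 7.45, 7.51, 8.08 and 7.88 in control Il6-deficient mice. In floxed mice it was at 10.10, 9.78, 8.65 and 10.004 after cryolesion, against 7.92, 7.88, 8.19 and 8.29 in controls. Every cryolesioned mouse was above every control, although cryolesioned Il6-deficient mouse 1 exceeded control floxed mouse 4 by little. The change was 1.36 ± 0.12 in Il6-deficient mice and 1.31 ± 0.12 in floxed mice, with a difference between them of 0.05 ± 0.17 (adjusted p = 1). Oas1a, Ifi204, Phf11d and Ifit3 have close relatives in the mouse genome, and shared signal on their probes was not tested.
Oasl2 and Oasl1 encode OAS-like proteins. Oasl2 averaged 8.69 ± 0.31 in cryolesioned Il6-deficient mice, against 7.68 ± 0.40 in control Il6-deficient mice (SD, n = 4 each), and 9.30 ± 0.92 in cryolesioned floxed mice, against 7.74 ± 0.42 in control floxed mice. It rose by 1.32 ± 0.16 on average, and Oasl1 by 0.82 ± 0.15. Oas2, a larger synthetase of the family, rose by 0.45 ± 0.11, the smallest change among the called members (adjusted p = 0.0462). Its call was kept in 8 of 19 alternative settings and lost in 11, with adjusted p between 0.0123 and 0.223, and 2 of the 8 fits with 1 array left out called it. Oas3 could not be followed.

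The membrane effectors Ifitm3 and Bst2 both rose. Ifitm3, which hinders the fusion of viruses with endosomes, stood at 11.54, 11.48, 10.95 and 11.40 in cryolesioned Il6-deficient mice, against 9.86, 9.37, 10.73 and 10.76 in control Il6-deficient mice. It was at 12.08, 11.90, 11.47 and 11.76 in cryolesioned floxed mice, against 9.74, 10.10, 10.54 and 10.28 in control floxed mice. All cryolesioned mice were above all controls, and control Il6-deficient mice 3 and 4 were well above mice 1 and 2. Ifitm3 rose by 1.01 ± 0.09 on average (adjusted p = 0.00166). Ifitm family genes are similar in sequence, and signal from Ifitm2 on this probe was not tested.
Bst2, which encodes tetherin and holds budding viruses at the cell surface, stood at 9.33, 10.11, 9.70 and 10.12 in cryolesioned Il6-deficient mice, against 8.30, 8.02, 8.49 and 8.66 in control Il6-deficient mice. Its levels were 10.74, 10.29, 9.46 and 10.28 in cryolesioned floxed mice, against 8.55, 8.26, 9.31 and 8.70 in control floxed mice. The cryolesioned mice were again above all controls, by the narrowest margin between cryolesioned Il6-deficient mouse 1 and control floxed mouse 3. Bst2 rose by 1.43 ± 0.15 (adjusted p = 0.00352).

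Both genes of the ISG15 system rose. Isg15, a ubiquitin-like protein attached to other proteins, averaged 11.12 ± 0.68 in cryolesioned Il6-deficient mice, against 9.54 ± 0.52 in control Il6-deficient mice (SD, n = 4 each). It averaged 11.66 ± 0.89 in cryolesioned floxed mice, against 9.54 ± 0.41 in control floxed mice, and its 8 cryolesioned mice were above its 8 controls. The rise was 1.93 ± 0.30 in Il6-deficient mice (adjusted p = 0.0284) and 1.71 ± 0.30 in floxed mice (adjusted p = 0.0345). Usp18, which removes ISG15 and restrains IFNAR signalling, rose by 1.36 ± 0.19 on average (adjusted p = 0.00839).
Of the IFIT family, which binds foreign RNA, Ifit3 rose by 1.13 ± 0.19 (adjusted p = 0.0138) and Ifit1 by 0.87 ± 0.16 (adjusted p = 0.0179). Ifit2 had 0.23 ± 0.09 and did not pass (adjusted p = 0.145). Ifit3 averaged 10.59 ± 0.51 in cryolesioned Il6-deficient mice, against 9.42 ± 0.59 in control Il6-deficient mice; it averaged 10.75 ± 0.89 in cryolesioned floxed mice, against 9.41 ± 0.50 in control floxed mice.

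Of the 6 enzymes of nucleotides and RNA 3 rose. Eif2ak2 encodes PKR, the kinase that halts translation when double-stranded RNA is present. It stood at 7.52, 7.67, 7.53 and 7.74 in cryolesioned Il6-deficient mice, against 6.85, 6.86, 6.96 and 7.02 in control Il6-deficient mice. Floxed mice had 8.17, 8.12, 7.41 and 7.83 after cryolesion, against 6.81, 6.95, 7.08 and 7.09 in controls. All cryolesioned mice were above all controls, and the rise was 0.85 ± 0.09 (adjusted p = 0.00375).
Rsad2, which encodes viperin and makes a chain-terminating nucleotide, rose by 1.17 ± 0.17 (adjusted p = 0.0091), and the exonuclease gene Isg20 by 0.60 ± 0.09 (adjusted p = 0.0114). Cmpk2, the mitochondrial nucleotide kinase gene next to Rsad2 on chromosome 12, had -0.06 ± 0.11 (adjusted p = 0.762). It averaged 9.53 ± 0.13 in cryolesioned Il6-deficient mice, against 9.44 ± 0.13 in control Il6-deficient mice, and 9.43 ± 0.19 in cryolesioned floxed mice, against 9.46 ± 0.08 in control floxed mice. Adar, which converts adenosine to inosine in RNA, had -0.29 ± 0.13 (adjusted p = 0.189), and its second probe, bright in all animals, had -0.03 ± 0.10. Adar was called lower in both fits of separate channels (adjusted p = 0.0071 in limma at its lowest). Samhd1, which hydrolyses deoxynucleotides, had 0.34 ± 0.09 (adjusted p = 0.0512).

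Among the PARP and chromatin factors 3 of 5 rose. Parp9, a PARP family protein that works as a partner of the ubiquitin ligase Dtx3l, stood at 7.55, 8.17, 7.81 and 7.94 in cryolesioned Il6-deficient mice, against 7.10, 6.99, 7.19 and 7.14 in control Il6-deficient mice. In floxed mice it was at 8.56, 8.28, 7.65 and 8.10 after cryolesion, against 7.06, 6.94, 7.18 and 7.29 in controls. Cryolesioned and control mice did not overlap, and Parp9 rose by 0.95 ± 0.11 (adjusted p = 0.00403).
Phf11d, a PHD-finger gene, stood at 7.28, 8.26, 7.67 and 7.85 in cryolesioned Il6-deficient mice, against 6.83, 6.62, 7.11 and 6.83 in control Il6-deficient mice. Floxed mice had 8.72, 8.62, 7.53 and 8.31 after cryolesion, against 6.82, 6.75, 7.08 and 7.17 in controls. These groups were also apart, and the rise was 1.16 ± 0.13 (adjusted p = 0.00412). Parp14, which lies beside Dtx3l and Parp9 on chromosome 16, rose by 0.74 ± 0.14 (adjusted p = 0.0197). Dtx3l itself had 0.39 ± 0.13 (adjusted p = 0.0978) and the nuclear body gene Sp100 0.22 ± 0.09 (adjusted p = 0.151); neither passed.

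The remaining 5 interferon-induced genes all rose. Ifi35, which binds the adaptor-like protein Nmi, stood at 9.47, 9.95, 9.72 and 9.78 in cryolesioned Il6-deficient mice, against 8.77, 8.80, 9.03 and 8.96 in control Il6-deficient mice. Its levels were 10.37, 10.47, 9.73 and 10.02 in cryolesioned floxed mice, against 8.95, 9.22, 9.03 and 9.07 in control floxed mice. No cryolesioned mouse overlapped a control, and Ifi35 rose by 1.07 ± 0.08 (adjusted p = 0.00104).
Rtp4, a chaperone of G protein-coupled receptors, stood at 8.92, 9.98, 9.52 and 9.89 in cryolesioned Il6-deficient mice, against 8.19, 8.11, 8.69 and 8.29 in control Il6-deficient mice. It was at 10.52, 10.52, 9.18 and 9.79 in cryolesioned floxed mice, against 8.51, 8.26, 8.79 and 8.75 in control floxed mice. The groups were apart, and Rtp4 rose by 1.48 ± 0.15 (adjusted p = 0.00302). Xaf1, which binds the apoptosis inhibitor XIAP, rose by 0.99 ± 0.12, and Ifi44 by 0.71 ± 0.14.
Ifi27l2a, a gene for a small hydrophobic protein, stood at 9.15, 9.91, 9.68 and 9.67 in cryolesioned Il6-deficient mice, against 7.90, 7.49, 7.94 and 8.94 in control Il6-deficient mice. Floxed mice had 10.12, 10.16, 9.56 and 10.67 after cryolesion, against 8.44, 8.96, 9.84 and 9.15 in controls. The Il6-deficient groups were apart, and control floxed mouse 3 lay within the cryolesioned floxed range. Ifi27l2a rose by 1.14 ± 0.12 in Il6-deficient mice (adjusted p = 0.0105) and by 0.73 ± 0.12 in floxed mice (adjusted p = 0.0308). Its interaction, 0.41 ± 0.17, was the one with an unadjusted p under 0.05 (adjusted p = 1).

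**Figure D2:**
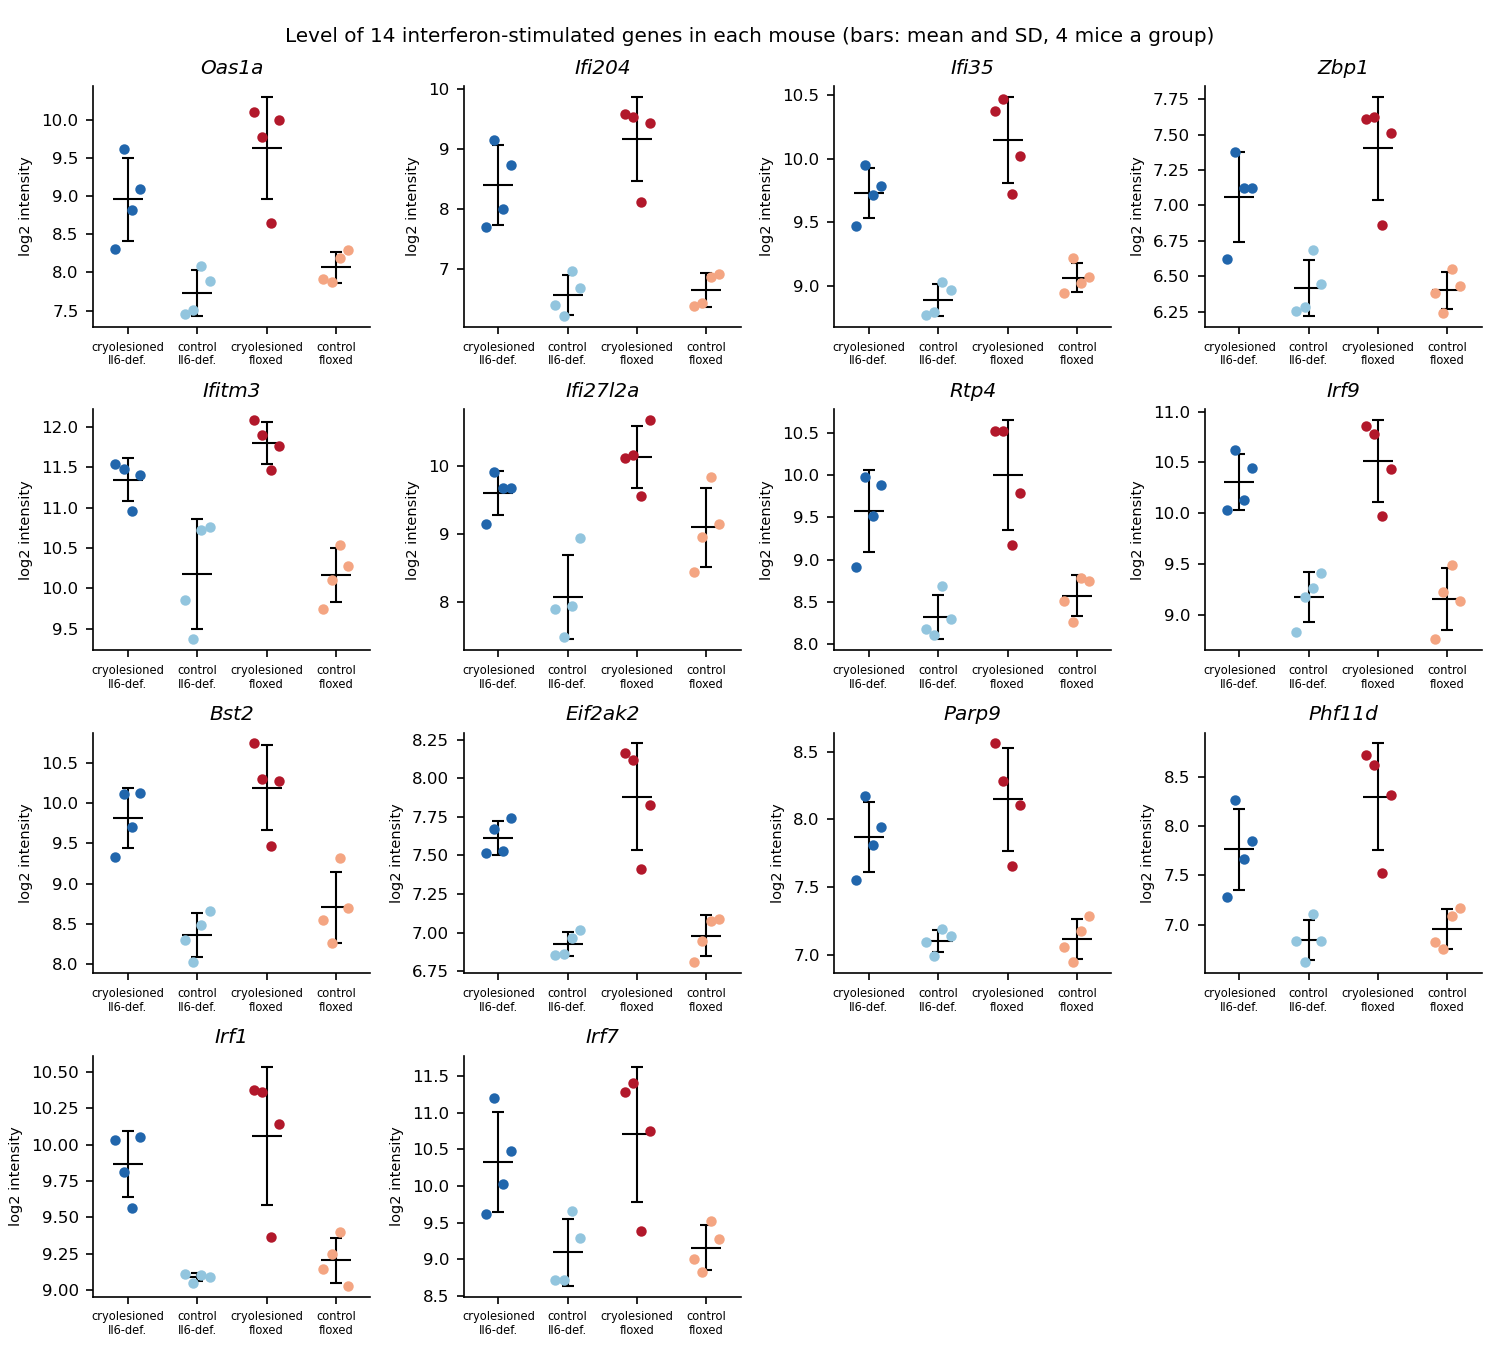
Level (y axis, log2 intensity) of 14 members in each of 16 mice (points), by group (x axis), with the mean and SD of 4 mice. For most genes the cryolesioned mice of either genotype lie above the controls, and within cryolesioned floxed mice the third replicate is the lowest in every panel.

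Over all 35 members, the 8 cryolesioned mice lay above the 8 controls for 13 members, against 3.24% of all features. Within Il6-deficient mice the cryolesioned animals were above the controls for 20 members (7.95% of all features), and within floxed mice for 16 members (7.14% of all features).

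On the 4 arrays with a cryolesioned and a control mouse, the ratio was above 0 on all 4 for 26 of 35 members, against 14.7% of all features. A further 7 members were above 0 on 3 arrays, Cmpk2 on 2 and Adar on 0. The size differed between arrays. The median ratio of the members was 0.27 and 0.71 on the arrays of cryolesioned Il6-deficient over control floxed mice. It was 1.36 and 1.14 on those of cryolesioned floxed over control Il6-deficient mice. Medians of all features lay between -0.03 and 0.01 on these arrays. Both deficient-lesion ratios were below both floxed-lesion ratios for 31 of 35 members, against 15.2% of all features. Each of these ratios also carries the genotype difference. By design, the gap between the 2 kinds of array adds the genotype differences of cryolesioned and of control mice. A difference between genotypes in the response to cryolesion cancels out of this gap. The gap also holds differences between single mice and between arrays, whose part was not tested. On the 4 arrays that compare genotypes, 5 of 35 members were lower in Il6-deficient mice each time, against 8.97% of all features.

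**Figure D3:**
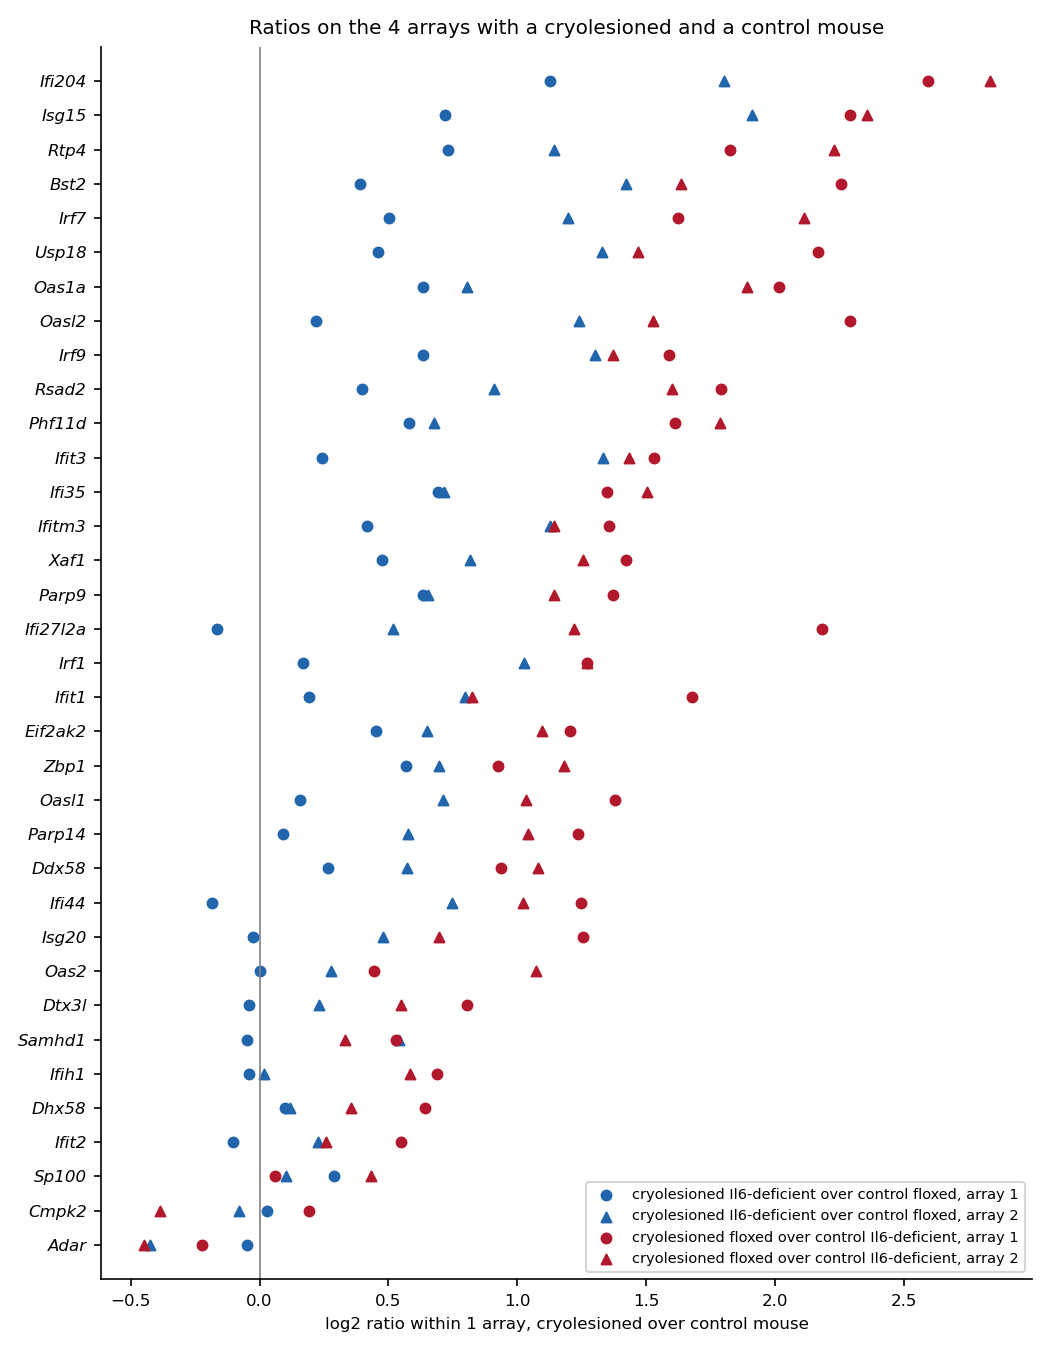
Log2 ratio of a cryolesioned over a control mouse (x axis) on each of the 4 arrays that hold both, for the 35 tested members (y axis); blue, cryolesioned Il6-deficient over control floxed; red, cryolesioned floxed over control Il6-deficient. Blue symbols lie left of red ones for most genes, and the first deficient-lesion array has the lowest ratio for 32 of 35 members (27% of all features). The gap between colours adds the genotype differences of cryolesioned and of control mice, beside differences between single mice and between arrays.

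Within a group, most members shared their lowest or highest mouse. Cryolesioned floxed mouse 3 had the lowest level of its group for 33 of 35 members, and it was lowest for 28.1% of all features. Cryolesioned Il6-deficient mouse 1, which shares its array, was the lowest of its group for 26 members (19.1% of all features). Cryolesioned floxed mouse 1 and cryolesioned Il6-deficient mouse 2 were each the highest of their group for 28 members (27.2% and 25.3% of all features). The mean level over the 35 members was 8.31, 8.98, 8.47 and 8.79 in cryolesioned Il6-deficient mice, against 7.75, 7.66, 8.09 and 7.995 in control Il6-deficient mice. It was 9.40, 9.15, 8.32 and 8.97 in cryolesioned floxed mice, against 7.84, 7.83, 8.17 and 8.04 in control floxed mice. All 8 cryolesioned mice were thus above all 8 controls. Without the array of cryolesioned floxed mouse 3 and cryolesioned Il6-deficient mouse 1, the averaged cryolesion change called 26 members.
Control mice that shared an array with a cryolesioned mouse read higher than those paired with another control, for 32 of 35 members and by a median of 0.24. For all features this held for 48.7%, with a median of -0.003. The part of the array pairing in the members' levels was not tested.

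**Figure D4:**
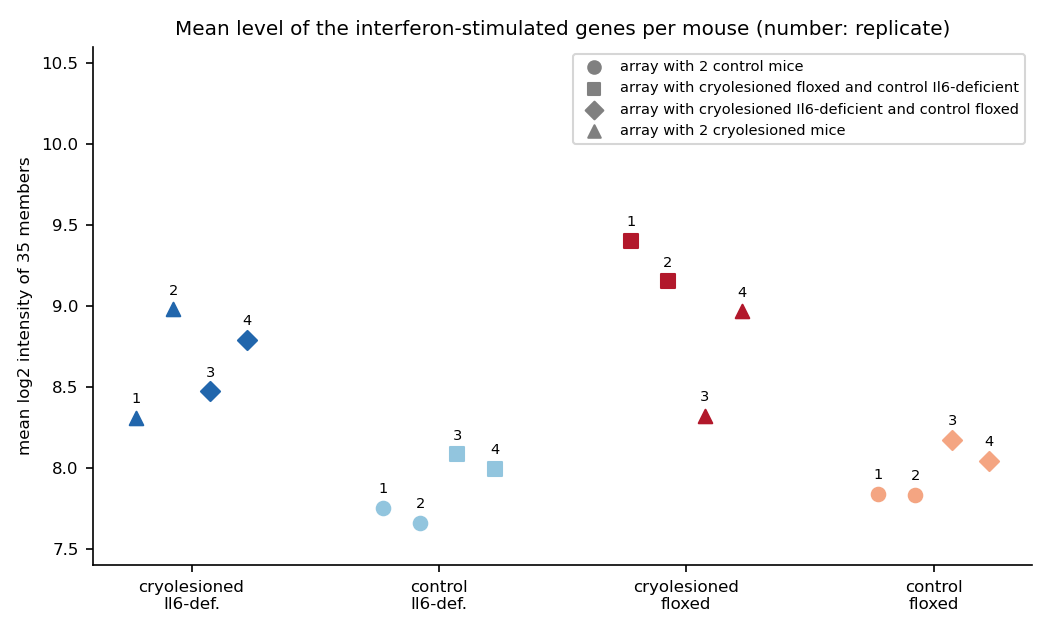
Mean log2 intensity of the 35 members (y axis) in each mouse, by group (x axis); numbers are replicates and symbols give the kind of array. Cryolesioned mice lie between 8.31 and 9.40 and controls between 7.66 and 8.17, and the controls paired with a cryolesioned mouse (squares and diamonds) are the higher 2 of their group.

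Il6 deficiency was set against the floxed genotype in cryolesioned mice, in controls and over both states. Il6 itself, the targeted cytokine gene, was near background: the brighter of its probes cleared background in 0 of 4 cryolesioned Il6-deficient mice, 3 of 4 cryolesioned floxed mice and 0 of 8 controls. Its level averaged 6.13 ± 0.08 in cryolesioned Il6-deficient mice, against 6.499 ± 0.270 in cryolesioned floxed mice (SD, n = 4 each). No member differed between genotypes at an adjusted p under 0.05, in cryolesioned mice (0% of all features), in controls (0% of all features) or averaged over both (lower: 0.00341% of all features, a single gene, Cx3cr1).
Averaged over both states, 33 of the 35 members had lower estimates in Il6-deficient mice, with a median log2 difference of -0.20 against 0.01 for all features. An unadjusted p under 0.05 was reached by 16 members, all lower, against 4.76% of all features. The exceptions in sign were Adar (0.14 ± 0.09) and Cmpk2 (0.04 ± 0.08). The count of 16 depended on the fit. In the limma fit of separate channels 9 members had an unadjusted p under 0.05, against 5140 of 29362 features in either direction. With a replicate block added there were 4 members, against 5542 of 29362 features. The estimates of the ratio fit also draw on the lesion arrays, and on the 2 genotype lesion arrays alone the signs were mixed. There the ratios of Il6-deficient over floxed mice were 0.53 and 0.43 for Ifit3 and 0.22 and 0.44 for Irf7. They were -0.42 and -0.76 for Ifi27l2a and -0.34 and -0.39 for Oas1a.
In cryolesioned mice 5 members were lower at an unadjusted p under 0.05, against 3.12% of all features: Ifi27l2a, Oas1a, Ifi204, Zbp1 and Ifih1. In controls there were 6, against 1.6% of all features: Ifi27l2a, Oas1a, Ifi35, Ifitm3, Isg20 and Oas2. In 0 of 35 members were all cryolesioned Il6-deficient mice below all cryolesioned floxed mice (1.34% of all features). In 0 of 35 were all Il6-deficient controls below all floxed controls (2.12% of all features). The opposite direction was not counted, and at such low shares of all features these counts do not set the members apart.
Ifi27l2a came nearest to a call. Its difference was -0.57 ± 0.11 in cryolesioned mice and -0.99 ± 0.11 in controls, and averaged -0.78 ± 0.06 (adjusted p = 0.0672); on the 4 arrays that compare genotypes it was lower each time. Oas1a followed with -0.48 ± 0.11 in cryolesioned mice, -0.53 ± 0.11 in controls and an average of -0.50 ± 0.06 (adjusted p = 0.229), again lower on all 4 arrays. Both were called for this average without deficient lesion array 1 (adjusted p = 0.0426 for Ifi27l2a and 0.0484 for Oas1a in limma), as were 0.572% of all features. In that fit the median difference of the 35 members was -0.12, and 5 estimates were positive. With sex as a covariate Ifi27l2a, Oas1a and Ifi35 were called, as were 5.39% of all features. In that fit the members' median was -0.14, and 12 had an unadjusted p under 0.05, against 7006 of 29362 features. The sex call rests on the RNA Xist, which was above background in 3 of 4 floxed and 1 of 4 Il6-deficient controls. Sex and genotype were thus not balanced in controls. For cryolesion in Il6-deficient mice, the fit with sex gave the same result as leaving out genotype control array 2. Each called 16 members and 560 features. The sex term therefore cannot be told apart from that array. Bst2, Ifi35 and Ifi44 were the other 3 members lower on all 4 arrays that compare genotypes, which makes 5 of 35, against 8.97% of all features. Ifi204 had -0.54 ± 0.19 in cryolesioned mice (adjusted p = 0.571) and -0.30 ± 0.19 in controls (adjusted p = 0.983).
The tested probes of the transcription factors did not pass even the unadjusted test: the average was -0.09 ± 0.09 for Irf9, -0.22 ± 0.14 for Irf7 and -0.15 ± 0.11 for Irf1. A dimmer Irf9 probe, above background in all 16 animals, had -0.18 ± 0.07 on average and -0.31 ± 0.12 in controls, both with an unadjusted p under 0.05. An estimate that misses the threshold at this number of arrays does not show that genotypes were alike.
Beside these values, Cx3cr1, the fractalkine receptor gene and a microglia marker, was lower in Il6-deficient mice, with a difference of -0.93 ± 0.06 (adjusted p = 0.023). Of the 10 microglia markers it was the only one called for genotype, and 9 did not pass. The part of any cell type in the members' genotype estimates was not tested.

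**Figure D5:**
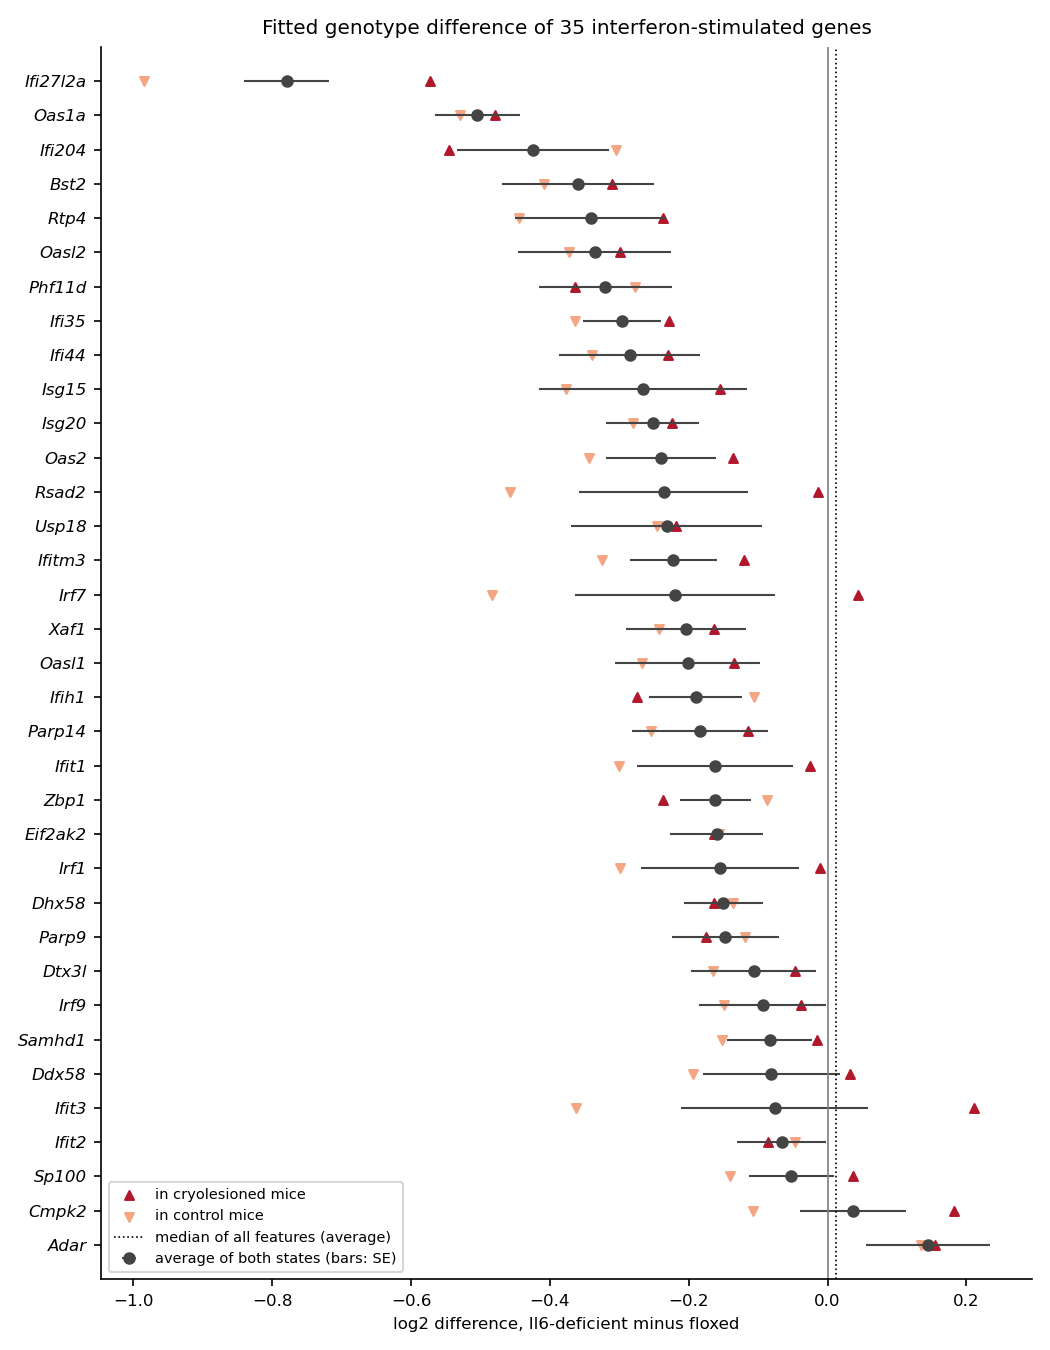
Fitted log2 difference of Il6-deficient minus floxed mice (x axis) for the 35 members (y axis): average of both states (dark circles; bars, SE), cryolesioned mice (red) and controls (light). All members but Adar and Cmpk2 have an average left of 0, with Ifi27l2a farthest at -0.78, and none passes the adjusted threshold.

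Markers of other cells also changed with cryolesion. Of 10 tested markers of monocytes and border macrophages, 5 rose (Ccr2, Plac8, Chil3, Mrc1 and F13a1) and 0 fell. Their summed linear intensity was 5174 to 7913 in cryolesioned Il6-deficient mice, against 4514 to 5903 in control Il6-deficient mice. It was 6412 to 11852 in cryolesioned floxed mice, against 4946 to 5134 in control floxed mice.
The neutrophil genes S100a8 (2.24 ± 0.26) and S100a9 (2.48 ± 0.22) rose, of 5 tested markers, while Ngp was not well above background in any mouse. The summed neutrophil level was 1087 to 2192 in cryolesioned Il6-deficient mice, against 469 to 581 in control Il6-deficient mice. It was 1318 to 4220 in cryolesioned floxed mice, against 462 to 599 in control floxed mice.
Of 10 microglia markers 2 rose (Fcrls, 1.34 ± 0.06, and Cx3cr1, 0.36 ± 0.08) and 3 fell (P2ry12, -1.47 ± 0.26, Tmem119, -0.57 ± 0.14, and Csf1r, -0.31 ± 0.07). Their sum was 50686 to 76379 in cryolesioned Il6-deficient mice, against 54347 to 73386 in control Il6-deficient mice, and 48014 to 62721 in cryolesioned floxed mice, against 46433 to 61123 in control floxed mice. Of 5 tested markers of plasmacytoid dendritic cells, the cells that make most interferon alpha in infection, 1 rose (Irf8). Of 4 tested T and NK cell markers 0 were called and 1 had an unadjusted p under 0.05, with a lowest change of -0.41; Cd8a, Gzmb and Ncr1 were not well above background in any mouse.
The astrocyte gene Gfap rose by 3.58 ± 0.18; in all 3 of 8 astrocyte markers rose and 2 fell. Of 8 neuron markers 2 fell and 0 rose, and all 8 were above background in every mouse. The part of cell composition in the members' changes was not tested. Xist, an RNA of the inactive X chromosome, was well above background in 0 cryolesioned mice and in 4 controls, 1 of them Il6-deficient and 3 floxed. With this sex call as a covariate, 28 members and 8.31% of all features were called for the averaged cryolesion change. Because the call was confined to controls, sex and cryolesion overlap in these groups and cannot be fully told apart. The sex term also cannot be told apart from genotype control array 2.

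Upstream genes of the pathway were followed by list. Among 13 interferon ligands 11 had a probe and 5 were tested, and 0 were called; the lowest p values were those of Ifnl3 (-0.15 ± 0.07, adjusted p = 0.234) and Ifna2 (-0.12 ± 0.06, adjusted p = 0.241). Ifnb1 was well above background in 0 of 16 mice and Ifng in 1. The interferon alpha genes are close copies of each other, so their probes may share signal.
None of 6 receptor subunit genes was called, although all 6 estimates were positive. Ifnar1, a subunit of the type I receptor, had 0.45 ± 0.12 (adjusted p = 0.0517), and Il10rb, shared by the type III receptor, had 0.52 ± 0.14 (adjusted p = 0.0544). Other Ifnar1 probes had -0.09 ± 0.11 and 0.06 ± 0.05.
Stat2, a subunit of ISGF3, rose (0.64 ± 0.14, adjusted p = 0.0319), and a dimmer Stat2 probe had 0.11. The receptor kinase genes Jak1, Jak2 and Tyk2 were not called.
Of 12 tested nucleic acid sensors and adaptors 5 rose and 0 fell. They were Myd88, the adaptor of most Toll-like receptors (1.44 ± 0.18), Cgas, the cytosolic DNA sensor (0.76 ± 0.08), Trim25, which activates RIG-I (0.79 ± 0.11), Sting1, the effector of Cgas (0.50 ± 0.12), and Ticam1, the adaptor of Tlr3 (0.37 ± 0.09).
Of 4 other interferon regulatory factors, Irf8 (0.68 ± 0.10) and Irf5 (0.55 ± 0.11) rose. Among 4 feedback inhibitors Socs1, which blocks JAK kinases (0.85 ± 0.12), and the phosphatase Ptpn6 (0.89 ± 0.07) rose, while Pias1, a SUMO ligase, fell (-0.55 ± 0.09). In the averaged genotype comparison 0 of the genes named in these lists were called.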

How the data were processed

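The members, lists and tests were chosen with earlier results of these data known. Per the file headers, spots were read with Agilent Feature Extraction 10.7.3.1 (2 colours, Cy5 red), and the deposited files give intensity as median pixel signals of spot and local background, beside intensity processed by the scanner software and its log10 ratio of red over green. The authors' deposited value table holds log2 ratios centred near 0, whose background correction and normalization are not given in the sources used here.

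Intensities were background-corrected with normexp (offset 50; median signals, since mean signals are not among the columns here) and loess-normalized within arrays, control spots and outliers at weight 0, in limma 3.58.1 (R 4.3.3). Probes above background in at least 4 of 16 channels were kept, and the brightest probe stood for a gene. Arrays formed a closed loop of 4 kinds, 2 of opposite dye each: genotype control (control Il6-deficient and control floxed), floxed lesion (cryolesioned floxed and control Il6-deficient), genotype lesion (cryolesioned Il6-deficient and cryolesioned floxed) and deficient lesion (cryolesioned Il6-deficient and control floxed). Limma's lmFit and eBayes fitted 3 group coefficients and a dye intercept with 4 residual degrees of freedom, and p-values were adjusted by Benjamini-Hochberg over all 29362 features (16852 named genes). All unadjusted p-values are from the same two-sided limma test. Levels are log2 channel intensities after Aquantile scaling. All 35 tested members were above background in all 16 channels. Within a single channel 59.2 to 65.9% of probes were above background, and 0 spots were saturated. The number of arrays limits the precision. Values of each animal are given for the 12 members with the lowest p for the averaged cryolesion change, the 4 and 2 with the lowest p for genotype in cryolesioned and control mice, and Irf1, Irf7 and Irf9. Pathway genes other than one that is not reported here are named where called. The fit was tested on simulated data. Alternatives changed the offset, background correction, normalization, filter, probe rule, dye and sex terms, the source of ratios, the replicate block and each array. All arrays were on 1 slide. Protein sequences were not used here.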

Additional observations from a re-analysis of the deposited data

Results flagged for a closer look

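Among the 14 members with values for each animal, the lowest and highest mouse of each group of 4 was compared with its nearest neighbour, and 2 of 56 groups held an animal apart, where chance alone marks about 1 group in 20. Both were cryolesioned floxed mouse 3. Its Ifi204 level was 8.12, against 9.42 to 9.58 in the other 3 mice of its group, and the gap made up 0.896 of the range, past Dixon's critical value for 4 animals. Its Zbp1 level was 6.86, against 7.51 to 7.63 in the others (0.848 of the range). This mouse shares its array with cryolesioned Il6-deficient mouse 1, so the animal and the array cannot be told apart.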

How the results depend on the processing

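The averaged cryolesion change called 27 members and between 24 and 33 under the 11 other settings (33 with separate channels, of which 32 rose and Adar fell), with 15 to 29 when 1 array was left out. Calls over all features made up 11.9% in the ratio fit and 8.02% with median centring, which called 24 members. They made up 28.7% with separate channels and 30.6% with the replicate block. For cryolesion in Il6-deficient mice the 18 became 8 with median centring and 10 with no filter on dim probes, with 21 higher and 1 lower in separate channels and 15 higher and 1 lower with the replicate block (all features called: 803 in the ratio fit, then 358, 623, 3134 and 3458), and 0 to 26 with 1 array left out. For cryolesion in floxed mice the 15 calls became 7 with processed intensities, 6 with median centring, 28 with separate channels and 23 with separate channels and a replicate block (all features called: 3.05% in the ratio fit, then 1.52%, 1.22%, 16.7% and 18.2%), and 0 to 20 with 1 array left out. Genotype averaged over both states called 0 members, 3 with sex as a covariate (5.39% of all features), and 0 to 2 with 1 array left out (0% to 0.572% of all features). Genotype in cryolesioned mice, genotype in controls and the interaction called 0 under every setting run. The sign of the interaction depended on the fit: 27 of 35 estimates were positive in the ratio fit, 5 with separate channels, 4 with the replicate block and 10 without genotype lesion array 2. The log2 change of Cmpk2, -0.06 in the ratio fit, reversed to 0.0096 with separate channels, 0.0154 with the replicate block and 0.0607 without floxed lesion array 2, and ranged from -0.186 to 0.0607 with 1 array left out. Of 665 single-member cryolesion values over 19 settings, 597 kept direction and call, 45 lost the call, 20 gained one and 3 (Cmpk2) reversed. Causes were not tested. Replicate numbers were not taken to pair the mice, because not every same-numbered pair correlated above 0.1: deviations correlated between -0.25 and 0.53, while the 6 pairs of replicate 2 lay between 0.12 and 0.36. The block called 31 members for the averaged cryolesion change (30 higher), against 33 in the same fit without it. With 8 arrays, 4 residual degrees of freedom limit what can be detected.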

Other observations

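Of 19 further probes of the tested members, 8 were above background in every mouse, and all 8 had the sign of the tested probe for the averaged cryolesion change. The second Irf7 probe had 0.61 against 1.36 for the tested one. Further probes of Ifi27l2a, Oas2, Parp9 and Xaf1 were above background in no mouse. Members that lie next to each other in the RefSeq gene table differed in size of change, with no test of the difference. Rsad2 had 1.17 and Cmpk2 -0.06 on chromosome 12, Ifit3 had 1.13 and Ifit2 0.23 on chromosome 19, and Parp9 had 0.95, Parp14 0.74 and Dtx3l 0.39 on chromosome 16.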
